A study of Mus musculus with 6 samples.

Results

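The genes that encode the proteins of the cytosolic ribosome were followed in the mouse embryonic stem cell line RW4 on 6 Affymetrix arrays. A gene was taken as a member where at least 1 probe set carried a single symbol of the ribosomal protein series (Rpl, Rplp, Rps or Rpsa), leaving out kinases and pseudogenes with similar names, and the brightest probe set stood for the gene. This gave 62 members of the 19938 genes measured, 38 of the large subunit and 24 of the small subunit, from 218 probe sets. Of 77 genes known to encode a protein of the standard cytosolic ribosome under these names, 54 were among the members. The other 23 were not analysed here, and 16 of them, such as Rpl3, Rpl11 and Rps27, lay only on probe sets that carry several symbols. The remaining 8 members were copies or paralogs: Rpl3l, Rpl7l1, Rpl10l, Rpl32l, Rpl39l, Rps4l, Rps23rg1 and Rps27l.

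The 3 groups had 2 arrays each: untreated cells, cells given 1 µM 4-hydroxytamoxifen (4OHT, an estrogen receptor ligand), and cells given 1 µM Shld1 (a ligand that stabilises a destabilised FKBP domain). The labels tie the first drug to the ERT2 induction system and the second to the FKBP system, name the induction system of the untreated cells WT, and do not say that any cells carried such a fusion. All cells grew on gelatin with 10% calf serum, 10% fetal bovine serum and, to hold off differentiation, 1000 U/mL of leukemia inhibitory factor, and no source used here gives the length of treatment. The arrays of a group are called duplicates, without a statement on separate cultures, so a p-value speaks of the spread among these samples, which may be a technical one.

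Each ribosome holds a single copy of nearly all of these proteins, so the cell needs them in equal numbers. Their messenger RNAs are among the most abundant in growing cells, and most start with a C followed by a run of pyrimidines, the terminal oligopyrimidine tract. Through this tract the mTOR pathway sets how strongly the messages are translated, often with little change in the amount of the message itself. Excess ribosomal proteins that find no place in a subunit are degraded, and some, such as Rpl5, can bind Mdm2 and stabilise p53. An array of total RNA measures the message alone, not its translation or the protein.

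The start sites of several members are shown because the pyrimidine run is the sequence feature the family is known for. RefSeq promoters on build GRCm38.p6 were found for 50 of the 62 members, as 59 promoters. In each line below, 45 bases before the annotated start are followed by the first 15 bases from it, 5′ to 3′ on the strand of the gene. Capitals mark at least 5 pyrimidines in a row (C or T), counted from a C within 10 bases of the start. Further pyrimidines may stand just before the capitals, as at the downstream start of Rpl34, where they reach beyond those 10 bases. Rps6, Rps18, Rpl38, Rplp2 and Rpl28 were picked among bright or well-studied members, and each carries such a run. Others of that kind, such as Rpsa, Rps28, Rpl5 and Rplp0, had no run by this rule and are not shown. Rpl12, Rpl34 and Rpl7l1 are those with the lowest p-values against untreated cells.
Rps6, chr4:86857353-86857412, minus strand: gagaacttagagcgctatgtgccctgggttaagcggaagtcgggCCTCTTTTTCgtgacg
Rps18, chr17:33955651-33955710, minus strand: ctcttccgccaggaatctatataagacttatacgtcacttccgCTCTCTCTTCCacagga
Rpl38, chr11:114668535-114668594, plus strand: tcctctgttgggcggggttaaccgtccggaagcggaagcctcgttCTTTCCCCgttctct
Rplp2, chr7:141447606-141447665, plus strand: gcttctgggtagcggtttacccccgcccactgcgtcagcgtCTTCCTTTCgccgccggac
Rpl28, chr7:4792920-4792979, plus strand: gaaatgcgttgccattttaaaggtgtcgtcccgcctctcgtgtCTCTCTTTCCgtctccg
Rpl12, chr2:32961667-32961726, plus strand: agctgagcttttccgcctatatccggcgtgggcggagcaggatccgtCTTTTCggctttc
Rpl34, downstream of 2 starts, chr3:130730323-130730382, minus strand: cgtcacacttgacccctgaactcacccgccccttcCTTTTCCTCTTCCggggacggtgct
Rpl34, upstream start, chr3:130730384-130730443, minus strand: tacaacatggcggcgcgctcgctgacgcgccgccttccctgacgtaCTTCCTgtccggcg
Rpl7l1, chr17:46782642-46782701, minus strand: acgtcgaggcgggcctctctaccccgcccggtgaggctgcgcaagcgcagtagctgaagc

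The capitals cover 10 bases in Rps6, 11 in Rps18 and 6 in Rpl12, and by this rule the paralog Rpl7l1 has none in its window. Such a run was found in 31 of the 59 member promoters (52.5%) and in 30.7% of all 32851 promoters of the table. Over the whole 300 bases of each promoter (250 before the start and 50 from it) and on both strands, the ETS-type motif CCGGAAG was present in 33.9% of member promoters and 8.86% of all promoters. It can be read in the Rpl38 window above. The Sp1-type motif GGGCGG was present in 55.9% of member promoters and 35.7% of all, and the YY1-type motif GATGGC in 20.3% and 14.1%. The TATA box TATAAA was present in 10.2% of member promoters against 13.6% of all, and the E-box CACGTG, to which Myc can bind, in 11.9% against 7.15%. Median GC content was 57.0% in member promoters and 52.7% in all. On the other strand the ETS-type motif reads CTTCCGG and can overlap a pyrimidine run, as it does at the downstream Rpl34 start. A match is a description of the letters only, and promoters of neighbouring starts of a gene share sequence.

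In the log2 signal of the arrays, 61 of the 62 members lay above 3.73, the 95th percentile of 1015 olfactory receptor genes, genes of smell with no known use in stem cells, taken here as a view of background. Among all genes, 12815 of 19938 lay above this level. The median signal of the members, as a mean over 6 arrays, was 11.96, with a range from 3.16 to 13.24. Of the 90 genes whose mean signal passed 11 on these arrays, 45 were members, and of the 43 that passed 12, 29 were. Both of these limits were chosen after the values were seen. Taking the brightest probe set also favours the members here, as 39 of 62 had several, against 999 of all 19938 genes. Of the 45 members above 11, 38 had several. Signal depends on the probe set as well as on the RNA, so no order of abundance among genes is read from it.

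The brightest members were Rps29, a zinc-binding protein of the small subunit head, at 13.24, the stalk protein Rplp1 at 13.13 and Rpsa at 13.06, followed by Rps14 at 12.77 and Rps28 at 12.76. The dimmest was Rpl3l, the muscle form of Rpl3, at 3.16, which is below the background level. Above it came Rpl12, at 5.16, then Rpl32l at 5.44, Rps23rg1 at 5.58 and the testis form Rpl10l at 5.68. Rpl12 is a standard ribosomal protein, and it was read here by 1 probe set only. The members with 1 probe set had a median signal of 8.62 (23 genes), and those with several, where the brightest was taken, 12.28 (39 genes).

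The members were steady from array to array. Per gene, the range of log2 signal over all 6 arrays had a median of 0.176 for the members, against 0.431 for all genes, and it was under 0.2 for 35 members (56.5%) and for 6.75% of all genes. Signal level moves with this spread. Among genes whose mean passed 11, the median range was 0.148 for the 45 members and 0.218 for the 45 other genes. These sets were not matched in signal, with medians of 12.25 and 11.64. By number of probe sets, the median range was 0.147 for the 39 members with several and 0.291 for the 23 with 1. Among the 17 members at or below 11, it was 0.360. The difference in spread between members and other genes was described and not tested.

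Rpsa, a small subunit protein also known as the laminin receptor, had the smallest range of any member, 0.040. Its log2 signal was 13.08 and 13.05 in untreated cells, 13.08 and 13.04 with 4OHT, and 13.07 on both Shld1 arrays. Rps29 read 13.25 and 13.21 in untreated cells, 13.23 and 13.26 with 4OHT, and 13.29 and 13.21 with Shld1, so its groups overlap. The ranges of Rpl37a and Rps15 were 0.044 and 0.062. At the other end, Rpl12 had a range of 1.13, Rpl32l of 0.604, Rps15a of 0.581 and Rpl7l1 of 0.580, and each of these genes was read by 1 probe set.

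**Figure D1:**
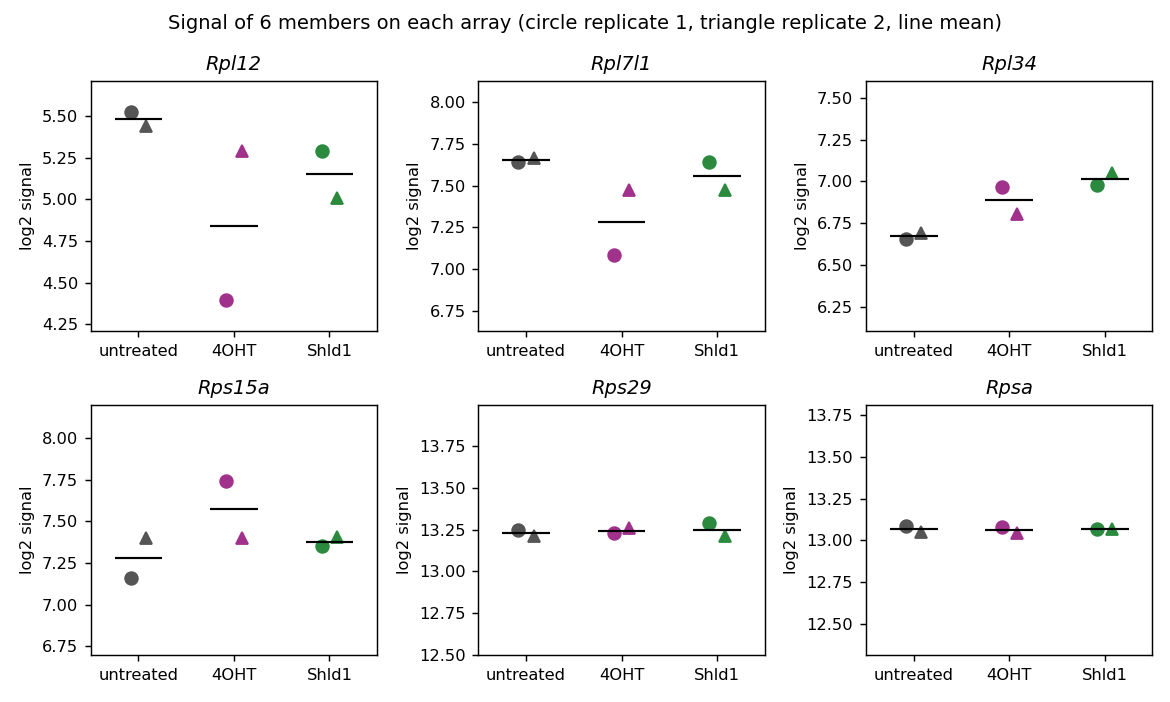
Log2 signal (vertical axes, each spanning the same height) of Rpl12, Rpl7l1, Rpl34, Rps15a, Rps29 and Rpsa in untreated, 4OHT and Shld1 cells; circles are replicate 1, triangles replicate 2 and lines the mean of the 2 arrays. Rps29 and Rpsa stay level at 13.24 and 13.06 on average, while Rpl12 runs from 5.52 on an untreated array down to 4.39 on 4OHT replicate 1.

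The first comparison asked whether 4OHT, used to switch ERT2 fusions, changes the expression of these genes in stem cells. The members of the 4OHT group were centred on the untreated level: the median log2 difference was -0.0015 over the 62 members and -0.0092 over all genes, with 30 members higher and 32 lower. No member passed adjusted p = 0.05 in limma (0 of 62, or 0%, against 0% of all 19938 genes). At an unadjusted p under 0.05, 2 members (3.23%) were called, Rpl12 and Rpl7l1, both lower, against 4.99% of all genes in either direction and 2.42% lower. Members with a signal above 11 could not add to this count. They differed by at most 0.15, and the fit held every SE at 0.135 or more. Rpl12 sits at the base of the stalk that recruits elongation factors, and Rpl7l1 is a paralog of Rpl7 found on precursors of the large subunit.

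Rpl12 read 5.52 and 5.44 in untreated cells and 4.39 and 5.29 in 4OHT cells, that is, 5.48 ± 0.06 against 4.84 ± 0.63 (SD, n = 2 each). Both 4OHT arrays were below both untreated arrays, and replicate 1 was far lower than replicate 2. The log2 difference was -0.64 (SE 0.25, 95% interval -1.20 to -0.08), with adjusted p = 0.96 in limma. Without 4OHT replicate 1 the difference was -0.19, and its unadjusted p was no longer under 0.05.

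Rpl7l1 read 7.64 and 7.67 in untreated cells and 7.09 and 7.47 in 4OHT cells, or 7.65 ± 0.02 against 7.28 ± 0.27 (SD, n = 2 each). Replicate 1 was again the lower of the 4OHT arrays, and the groups did not overlap. Its log2 difference was -0.37 (SE 0.17), with adjusted p = 0.96 in limma. Leaving out 4OHT replicate 1 gave -0.18, again without an unadjusted p under 0.05.

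Of the other members with large negative values against untreated cells, Rpl22 had a log2 difference of -0.18, Rps23rg1 of -0.16 and Rpl36 of -0.15. Rps15a, a small subunit protein, had the largest positive value, 0.29 (SE 0.16, limma adjusted p = 0.96). Its signal was 7.16 and 7.40 in untreated cells and 7.74 and 7.40 in 4OHT cells, so the higher untreated array and the lower 4OHT array nearly met. Rpl10l followed with 0.28, Rpl34 with 0.21, Rpl32l with 0.18 and Rpl3l with 0.17, each with adjusted p of 0.96 (limma). Of these 5, 3 (Rpl10l, Rpl32l and Rpl3l) are copies or paralogs with low signal, and Rpl3l lay below background.

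Arrays of the 4OHT and untreated groups did not overlap for 13 members that were higher (21%, against 17.3% of all genes) and 15 that were lower (24.2%, against 20.4%). These shares lie near the background shares. For 57 of the 62 members (91.9%), the whole 95% interval was inside 1.5-fold in either direction, as it did for 72.1% of all genes. Among the 45 members with a signal above 11, the log2 differences ran from -0.15 to 0.07.

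**Figure D2:**
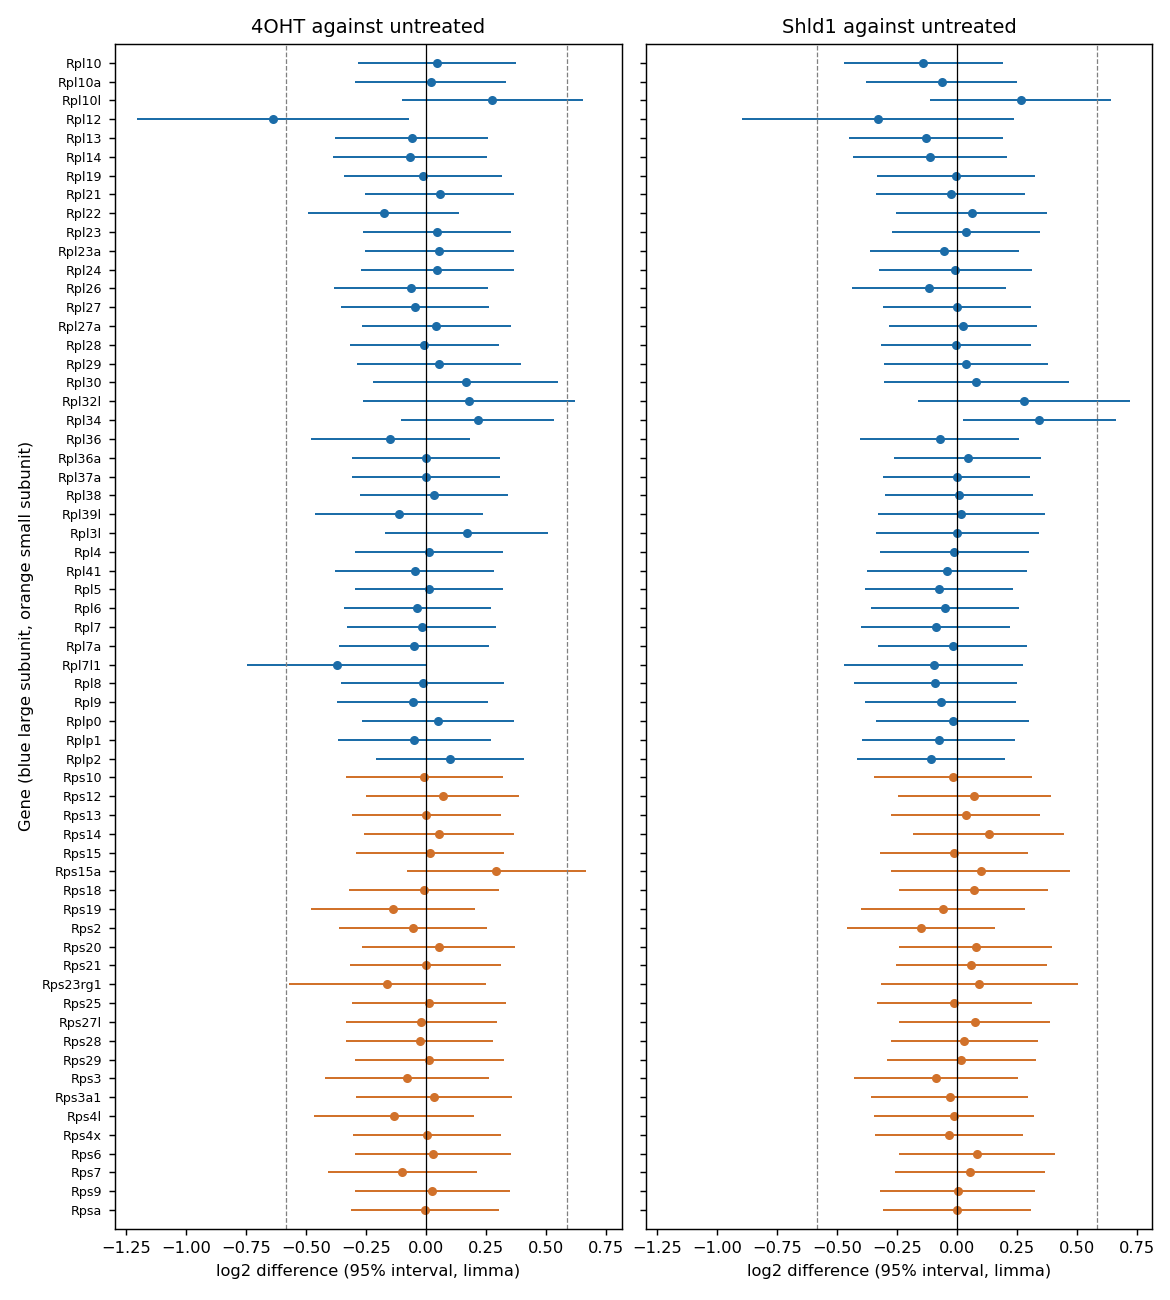
Log2 difference (horizontal axes) of each of the 62 members, 4OHT against untreated on the left and Shld1 against untreated on the right, with large subunit genes in blue and small subunit genes in orange; bars are 95% intervals from limma and dashed lines mark 1.5-fold. The intervals of 57 members on the left and 58 on the right lie between the dashed lines, and that of Rpl12, from -1.20 to -0.08 with 4OHT, is the widest.

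The second comparison asked the same of Shld1. Here the median log2 difference of the members was -0.0053, against -0.0043 for all genes, with 27 members higher and 35 lower. In limma 0 of 62 members passed adjusted p = 0.05 (0%, against 0% of all genes). Rpl34, a large subunit protein, was the only member with an unadjusted p under 0.05 (1 of 62, or 1.61%, higher in Shld1 cells, against 2.41% of all genes higher and 4.34% in either direction). No member was lower at that limit, where 1.94% of all genes were. The floor under the SE applied here too, so these lower shares are not read as a result about the members.

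Rpl34 was measured by 1 probe set, at a mean signal of 6.86 against a median of 12.02 for the standard genes. It read 6.66 and 6.69 in untreated cells and 6.98 and 7.05 with Shld1, or 6.67 ± 0.02 against 7.01 ± 0.05 (SD, n = 2 each). All 4 treated arrays, with either drug, were above both untreated arrays, the 4OHT arrays at 6.97 and 6.81. The log2 difference with Shld1 was 0.34 (SE 0.14, 95% interval 0.03 to 0.66), with adjusted p = 0.999 in limma. The difference with 4OHT was 0.21 (SE 0.14, limma adjusted p = 0.96). Both differences use the same untreated arrays, so they do not count as separate evidence. Over the 18 fits with other settings or arrays left out, the Shld1 value ran from 0.28 to 0.39, and the lowest adjusted p was 0.37.

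Next to Rpl34, the largest positive values with Shld1 were those of Rpl32l (0.28), Rpl10l (0.27), Rps14 (0.13) and Rps15a (0.10). Rpl32l read 5.31 and 5.27 in untreated cells and 5.27 and 5.87 with Shld1, so 1 array carried its value. The largest negative values were those of Rpl12 (-0.33), Rps2 (-0.15), Rpl10 (-0.14), Rpl13 (-0.13) and Rpl26 (-0.12). Rpl12 read 5.29 and 5.01 with Shld1, below both untreated arrays, with an SE of 0.25 on its difference.

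Rps2, a protein at the messenger RNA entry of the small subunit, read 12.12 and 12.17 in untreated cells and 12.001 and 11.991 with Shld1, a log2 difference of -0.15 (SE 0.14, limma adjusted p = 0.999). Rpl10, which joins late in the maturation of the large subunit, read 11.97 and 11.99 against 11.96 and 11.72, so that Shld1 replicate 2 alone was far from the untreated level. Rpl13 likewise read 12.46 and 12.47 against 12.42 and 12.24. The 95% intervals of all 3 differences held 0.

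Arrays of Shld1 and untreated cells did not overlap for 6 members that were higher (9.68%, against 15.2% of all genes) and 12 that were lower (19.4%, against 17.3%). The 6 were Rpl34, Rpl36a, Rps13, Rps14, Rps18 and Rps28. The 12 were Rpl5, Rpl6, Rpl7, Rpl7l1, Rpl9, Rpl10, Rpl12, Rpl13, Rpl14, Rpl23a and Rplp2 of the large subunit, and Rps2 of the small. The 95% interval lay within 1.5-fold for 58 members (93.5%) and for 74.3% of all genes. For the 45 members above 11, log2 differences ran from -0.15 to 0.13.

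**Figure D3:**
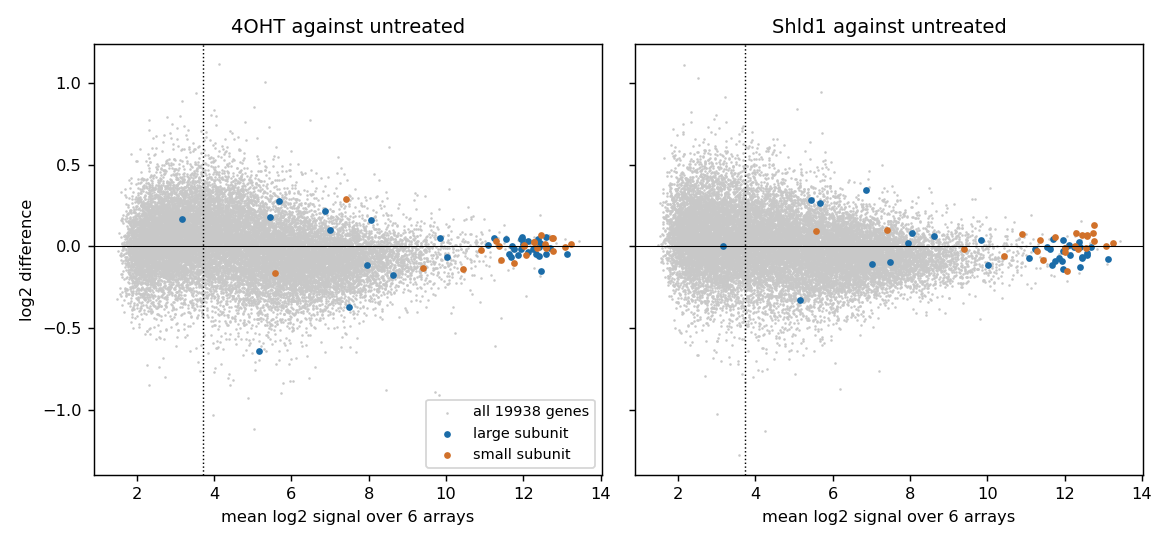
Log2 difference from untreated cells (vertical axes) against mean log2 signal over 6 arrays (horizontal axes), for all 19938 genes in grey and the members in blue (large subunit) and orange (small subunit), with the background level of 3.73 as a dotted line. Most members lie at the bright end, where 45 of them pass a signal of 11 and differ by -0.15 to 0.13 at the most.

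The third comparison set 4OHT against Shld1, each given at 1 µM, and gave a median log2 difference (4OHT minus Shld1) of 0.0088 over the members and -0.0043 over all genes, with 33 members higher with 4OHT and 29 lower. In limma 0 of 62 members passed adjusted p = 0.05 (0%, against 0% of all genes), and 0 had an unadjusted p under 0.05, against 5.6% of all genes (2.5% higher with 4OHT and 3.1% lower). Because of the floor under the SE, this lower share is not read as a result about the members. The largest negative values were those of Rpl12 (-0.31), Rpl7l1 (-0.28), Rps23rg1 (-0.26), Rpl22 (-0.24) and Rps7 (-0.15), and the largest positive those of Rplp2 (0.21), Rps15a (0.19), Rpl10 (0.19), Rpl3l (0.17) and Rpl23a (0.11). Rpl22, an RNA-binding protein of the large subunit that has a known role in lymphocyte development, read 8.45 and 8.52 with 4OHT and 8.70 and 8.74 with Shld1, without overlap (limma adjusted p = 0.895). One untreated array, at 8.61, lay between them and the other, at 8.71, lay within the Shld1 pair.

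The arrays of the 2 drugs did not overlap for 9 members higher with 4OHT (14.5%, against 14.9% of all genes) and 9 lower (14.5%, against 15.6%). For 59 members (95.2%) the 95% interval lay within 1.5-fold, as for 71.6% of all genes. A p above the threshold does not show that the drugs act alike, but for these 59 genes a larger difference than 1.5-fold was outside the interval.

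The large and small subunits were then compared on each array, as the mean over members of the log2 signal minus the untreated mean of each gene. The large subunit mean was -0.007 and 0.007 on the untreated arrays, -0.019 and -0.004 on the 4OHT arrays, and 0.023 and -0.055 on the Shld1 arrays. The small subunit mean was 0.012 and -0.012 on the untreated arrays, 0.013 and -0.026 with 4OHT, and 0.048 and -0.007 with Shld1. Large minus small was thus -0.019 and 0.019 in untreated cells, -0.032 and 0.022 with 4OHT, and -0.024 and -0.048 with Shld1.

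The 4OHT arrays lay on both sides of the untreated arrays in this balance, while both Shld1 arrays lay slightly below them. The SD of this balance between replicates, pooled over the 3 groups, was 0.029, which the values on Shld1 replicate 2 and 4OHT replicate 1 exceeded in size and those on the other 4 arrays did not. By counts, the large subunit had 18 members higher and 20 lower with 4OHT, and the small subunit 12 and 12. With Shld1 the large subunit had 12 higher and 26 lower (median -0.018), and the small subunit 15 higher and 9 lower (median 0.024). The members were not tested as a group, and leaving out Shld1 replicate 1 moved the difference between the 2 medians from -0.043 to -0.080.

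Shld1 replicate 2 stood apart from the other arrays in ways that touch these counts. It was the lowest of the 6 arrays for 27 of the 62 members and for 22.0% of all genes. On it 42 members lay below their own mean over 6 arrays, 29 of 38 in the large subunit and 13 of 24 in the small. Its bright end was also lower over all probe sets, with a 99th percentile of 11.90 against 11.94 to 11.97 on the other arrays, and its median for olfactory receptor genes was higher, 2.57 against 2.31 to 2.40. Shld1 replicate 1 went the other way, with 42 members above their own mean. After quantile normalization, which gives all arrays one distribution, the mean over members was 0.016 and 0.014 on the Shld1 arrays, and large minus small was -0.025 and -0.038. The part of this array in the subunit counts was not tested otherwise.

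**Figure D4:**
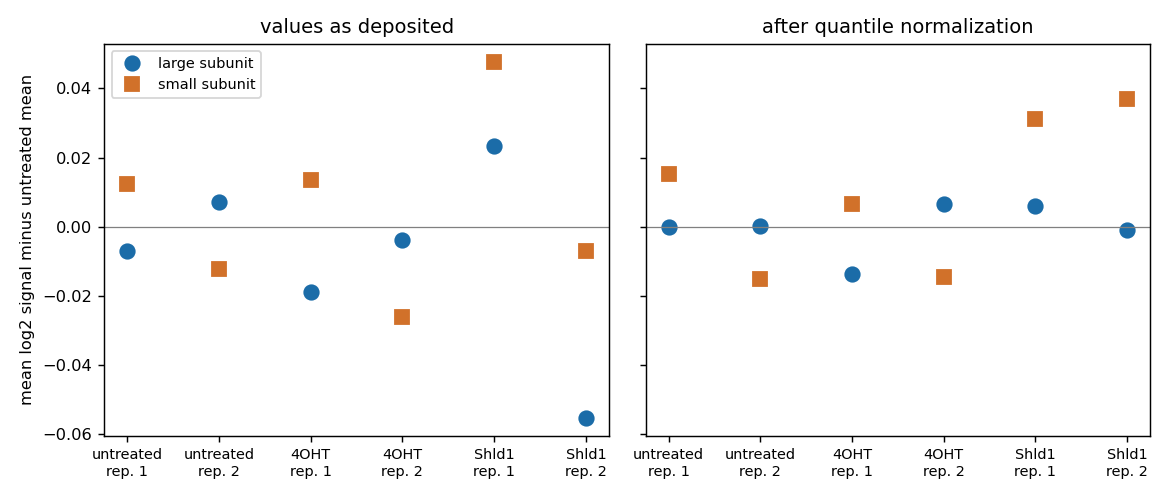
Mean log2 signal minus the untreated mean (vertical axes) over the 38 large subunit genes (blue circles) and 24 small subunit genes (orange squares) on each array, with values as deposited on the left and after quantile normalization on the right. Large minus small runs from -0.048 on Shld1 replicate 2 to 0.022 on 4OHT replicate 2 as deposited.

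**Figure D5:**
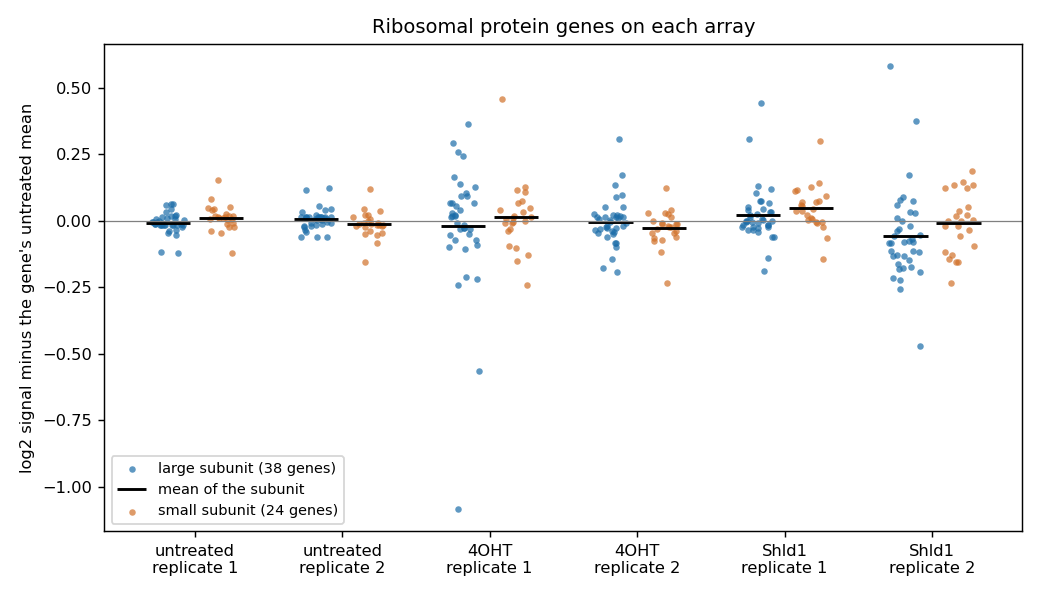
Log2 signal minus the untreated mean of the gene (vertical axis) for each member on each array, large subunit in blue and small subunit in orange, with the mean of the subunit as a black bar. The untreated arrays are tight around 0, as the mean is their own, and Shld1 replicate 2 has 42 members below their mean over 6 arrays; the lowest point is Rpl12 on 4OHT replicate 1.

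By role, the stalk recruits the translation factors and is built from Rplp0, Rplp1, Rplp2 and, at its base, Rpl12. Rplp0, which carries the other stalk proteins, read 11.21 and 11.24 in untreated cells, 11.36 and 11.20 with 4OHT, and 11.23 and 11.19 with Shld1. Its partner Rplp1 read 13.19 and 13.15, then 13.07 and 13.17, then 13.16 and 13.02. Both overlap between groups, with log2 differences of 0.05 and -0.05 for 4OHT and -0.02 and -0.08 for Shld1, each with an SE of 0.14.

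Rplp2, the partner of Rplp1 in the stalk, was measured by 1 probe set, at a mean signal of 7.01. It read 7.03 and 6.99 in untreated cells, 7.12 and 7.10 with 4OHT, and 6.87 and 6.93 with Shld1. It was thus above the untreated arrays with 1 drug and below them with the other, a log2 difference between the drugs of 0.21 (SE 0.14, limma adjusted p = 0.92). Of the 4 stalk genes, 2 were higher and 2 lower with 4OHT, and all 4 lower with Shld1, with differences from -0.02 to -0.33. Of these 8 differences, only that of Rpl12 with 4OHT had an unadjusted p under 0.05.

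Rpl5, which carries a ribosomal RNA into the large subunit and binds Mdm2 when free, read 11.10 on both untreated arrays, 11.11 on both 4OHT arrays, and 11.06 and 10.98 with Shld1. Its log2 differences were 0.01 and -0.07, with an SE of 0.14. Rps6, the substrate of the kinase below mTOR, read 12.26 and 12.24 in untreated cells, 12.27 and 12.29 with 4OHT, and 12.23 and 12.44 with Shld1, and had differences of 0.03 and 0.08 (SE 0.14). Around the messenger RNA exit, Rps14 read 12.73 and 12.69, then 12.82 and 12.70, then 12.84 and 12.85, and Rps28 read 12.76 on both untreated arrays, then 12.75 and 12.71, then 12.80 and 12.78. Both were higher on Shld1 arrays than on untreated ones, by 0.13 and 0.03 on the log2 scale, less than the limma SE of 0.14. That SE leans on the spread of all genes and is not the replicate spread of these 2. The SDs in untreated and Shld1 cells were 0.035 and 0.008 for Rps14, and 0.003 and 0.018 for Rps28.

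Around the exit of the peptide tunnel, Rpl19, Rpl23a, Rpl26 and Rpl38 had log2 differences from -0.06 to 0.05 with 4OHT and from -0.12 to 0.01 with Shld1. Rpl38, known from a mouse mutant with skeletal patterning defects, read between 12.08 and 12.16 on all 6 arrays. Fau, whose protein is a ubiquitin-like domain fused to a small subunit protein and which falls outside the naming rule, had differences of -0.10 and -0.07 (SE 0.16) at a signal of 11.36.

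The 8 copies and paralogs had a median signal of 6.59 and a median range over arrays of 0.447, against 12.02 and 0.166 for the 54 standard genes. The brightest was Rps27l, a p53-responsive form of Rps27, which read 10.90 and 10.88 in untreated cells, 10.86 and 10.88 with 4OHT, and 11.03 and 10.89 with Shld1. Rps4l read 9.47 and 9.45, then 9.31 and 9.34, then 9.57 and 9.32, so that its 4OHT arrays lay below the untreated ones (log2 difference -0.13, SE 0.15) and its Shld1 arrays overlapped them. Rpl39l, a form known from male germ cells, read 7.976 and 7.999, then 7.747 and 8.001, then 8.107 and 7.903, and its groups overlapped. Rps23rg1, a retrogene of Rps23, had the widest gap between untreated replicates, 5.76 and 5.45. Signal from a copy cannot be told from that of its parent on a probe set that matches both.

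The remaining 22 members, 12 of the large subunit and 10 of the small, had log2 differences from -0.14 to 0.16 with 4OHT and from -0.09 to 0.08 with Shld1. The members with the largest differences had been named above by rule, so this narrower range follows in part from that choice. Of the 22, 19 had a signal above 11. The 22 were Rpl4, Rpl7a, Rpl8, Rpl10a, Rpl21, Rpl23, Rpl24, Rpl27, Rpl27a, Rpl29, Rpl30 and Rpl41, and Rps3, Rps3a1, Rps4x, Rps9, Rps10, Rps12, Rps19, Rps20, Rps21 and Rps25. Rpl30 spread the most, at 8.03 and 7.90 in untreated cells, 8.33 and 7.93 with 4OHT, and 7.96 and 8.14 with Shld1, and its groups overlapped. Rps19, whose human counterpart is the gene most often mutated in Diamond-Blackfan anaemia, read 10.56 and 10.45, then 10.26 and 10.47, then 10.54 and 10.35, so that 4OHT replicate 1 was its lowest array. Rpl4, which lines the peptide tunnel, read between 11.97 and 12.05 on all 6 arrays.

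Genes around the ribosome were read from lists that hold no members. Of 24 translation factors, 21 were measured, and none passed adjusted p = 0.05 or an unadjusted p of 0.05 (limma). With 4OHT 8 were higher and 13 lower (median -0.04), and with Shld1 5 higher and 16 lower (median -0.08). The mean over the list was -0.03 on Shld1 replicate 1 and -0.13 on replicate 2, and the Shld1 median was -0.03 after quantile normalization and -0.04 without 4OHT replicate 1 and Shld1 replicate 2. All 48 ribosome assembly and polymerase I genes of a second list were measured, and again none passed the adjusted threshold. At an unadjusted p under 0.05 (limma), 1 of 48 was called with 4OHT, against 4.99% of all genes. With Shld1 it was 0 of 48, against 4.34%. With 4OHT 9 were higher and 39 lower, with a median of -0.10 (all genes -0.0092), and with Shld1 12 higher and 36 lower, with a median of -0.06. After quantile normalization 14 were higher and 34 lower with 4OHT (median -0.06), and 22 higher and 26 lower with Shld1 (median -0.02).

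The assembly gene with an unadjusted p under 0.05 was Nob1, the nuclease that finishes the small subunit RNA, at 7.14 ± 0.02 in untreated and 6.77 ± 0.25 in 4OHT cells (SD, n = 2 each), a log2 difference of -0.37 (SE 0.17, limma adjusted p = 0.96). Ltv1, also of small subunit assembly, followed with -0.31 (SE 0.16). With Shld1 the lowest p-values of the list were those of Wdr12, at -0.31 (SE 0.16), and Polr1b, at -0.36 (SE 0.20). Between the drugs they were those of Pes1, at -0.30, Sbds, at -0.27, and Ubtf, at 0.23, with limma adjusted p from 0.894 to 0.904. The mean over the assembly genes differed between replicates, at -0.17 on 4OHT replicate 1 and -0.02 on replicate 2, and -0.02 and -0.11 on the Shld1 arrays. After quantile normalization it was -0.09 and -0.01 on the 4OHT arrays and -0.04 and 0.003 on the Shld1 arrays. Without 4OHT replicate 1 and Shld1 replicate 2, 23 were higher and 25 lower with 4OHT (median -0.01), and 15 higher and 33 lower with Shld1 (median -0.05).

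Of 15 regulators of ribosome production, 13 were measured, and 5 were higher and 8 lower with 4OHT. The one unadjusted p under 0.05 among these 13 with 4OHT (limma, against 4.99% of all genes) was that of Myc, a driver of ribosomal gene transcription. Untreated cells had Myc at 5.24 ± 0.22, 4OHT cells at 5.77 ± 0.13 and Shld1 cells at 5.56 ± 0.02 (SD, n = 2 each). Its log2 differences were 0.53 with 4OHT (SE 0.16, limma adjusted p = 0.96) and 0.33 with Shld1 (SE 0.16, limma adjusted p = 0.999). The next lowest p-values with 4OHT went the other way. Mycn, at a mean signal of 6.86 against 5.52 for Myc, had a log2 difference of -0.24 (SE 0.14), and Rheb -0.22 (SE 0.14).

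The label of the cells was checked against markers. All 10 pluripotency markers, among them Pou5f1 and Nanog, lay above background, at 7.28 to 12.07. Of 8 fibroblast markers 5 were above it, none over 5.78, with Postn, Dcn and Lum below. Of 6 endoderm markers 5 were above background, up to 6.53, with Afp below. Of 5 trophoblast markers 2 were above, up to 4.52, with Cdx2, Gata3 and Elf5 below. Of 5 neural markers 4 were above, up to 8.34, with Nes below. The summed log2 level of the pluripotency markers ran from 99.33 to 99.73 on untreated arrays, 99.23 to 99.96 with 4OHT and 97.95 to 99.76 with Shld1. In bulk samples fewer cells of a type and less RNA per cell cannot be told apart, and the part of these markers in the members' values was not tested.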

How the data were processed

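The values analysed were log2 signals, 1 per probe set and array, as deposited by the authors for 6 arrays, and 35556 probe sets. Their scale was read from their range. Background correction, summarization and normalization are not given in the sources used here, and limma 3.14, listed in the submitters' processing notes, has no stated role. Of the probe sets, 21789 had 1 gene symbol in the platform annotation, 1621 several and 12146 none. Only those with 1 were named, 21698 of them through a current Entrez record, and the brightest probe set over all arrays was taken for each of 19938 genes (999 genes had several).

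No further normalization was applied. Group means were fitted for all genes over 6 arrays (limma 3.58.1, R 4.3.3, no trend), and two-sided p-values were adjusted by the Benjamini-Hochberg method over all 19938 genes. Residual degrees of freedom were 3, and moderation added 6.77. The number of arrays limits precision: the median 95% half-width of a log2 difference was 0.357 over all genes. An exact permutation test of 2 arrays against 2 cannot give p below 0.333 and was not used. Errors are SDs of 2 arrays or standard errors of the fit.

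The members and lists were chosen with earlier results of these data known. Named genes are the 5 largest positive and negative differences per comparison, the 5 brightest and dimmest members, role groups, paralogs, the 3 widest replicate gaps, and the 3 lowest p-values per comparison over the other lists. Members whose arrays did not overlap are named from the counts. The steps were tested on simulated data. Alternatives were a trend or robust moderation, 3 other normalizations, a filter on dim genes, averaged or separate probe sets, a block on the replicate number, weights on arrays, fits of 2 groups, standard genes only and arrays left out. Replicate numbers were not used to pair the samples in the main fit, as the labels do not say what they mark. Deviations of same-numbered arrays correlated at 0.05 (4OHT and untreated), -0.08 (Shld1 and untreated) and -0.19 (4OHT and Shld1) over all genes. Over the members they were -0.06, -0.04 and -0.41. With 2 arrays per group these values cannot show whether cultures or days were shared.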

Additional observations from a re-analysis of the deposited data

How the results depend on the processing

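In every one of the 22 settings per comparison, main and alternative, no member passed adjusted p = 0.05 in limma. Not every setting held 62 members: standard genes only held 54, separate probe sets 218 rows, and the filter on dim genes left out Rpl3l. In the main fit the lowest adjusted p of a member (limma) was 0.96 for 4OHT, 0.999 for Shld1 and 0.895 between the drugs. The counts of members at an unadjusted p under 0.05 are small and unstable. In the main limma fit they were 3.23%, 1.61% and 0% of members for 4OHT, Shld1 and between the drugs. The shares of all genes were 4.99%, 4.34% and 5.6%. Shares of all genes in the other settings are not given here. For 4OHT the count of 2 became 1 after centring on the 75th percentile, after cyclic loess, with the replicate number as a block, or with standard genes only, and ran from 0 to 3 with 1 array left out. It was 0 without 4OHT replicate 1 and Shld1 replicate 2, with or without quantile normalization. For Shld1 the count of 1 became 2 with an intensity trend and 0 with the replicate block, and ran from 0 to 2 with 1 array left out. Between the drugs the count of 0 became 3 with the trend and 1 after quantile normalization without both arrays, and ran from 0 to 2 with 1 left out. With the 4OHT numbers crossed in the block the counts were 2, 1 and 0. The cause was not tested.

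The median log2 difference of the members was 0.044 for 4OHT and 0.029 for Shld1 after centring on the 75th percentile, where the median of all genes also moved, to 0.036 and 0.030. After cyclic loess it was 0.026 for Shld1 and -0.020 between the drugs, and without both arrays -0.028 between the drugs. With 1 array left out it ran from -0.016 to 0.013 for 4OHT, from -0.055 to 0.013 for Shld1 and from -0.020 to 0.035 between the drugs. Large minus small then lay between -0.015 and 0.027 for 4OHT, -0.080 and -0.040 for Shld1, and 0.012 and 0.063 between the drugs. Of the alternative values of these counts and medians, 28 moved by more than the replicate spread or 1.5 times and 224 did not, and of those of single genes 53 and 3387.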

Other observations

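Apart from the probe sets of the members, 239 probe sets carried several symbols, at least 1 of them a ribosomal protein. The 16 standard genes that lay only on probe sets with several symbols are read there. Symbols of members may stand on these probe sets too, so they are not a reading of other genes alone. The median log2 signal of the 239 probe sets was 11.81, close to that of the members, with a range from 4.02 to 12.87. Against untreated cells their median log2 difference was -0.013 with 4OHT and -0.012 with Shld1, and 0.010 between the drugs. From the 5th to the 95th percentile the differences ran from -0.11 to 0.12 with 4OHT and from -0.14 to 0.08 with Shld1. These probe sets cannot be given to 1 gene, and many may read copies of the same gene, so they were not tested. Over all 218 probe sets of the members, 115 were higher and 103 lower with 4OHT, and 101 higher and 117 lower with Shld1. These are not separate readings. Rps12 alone had 14 probe sets while 23 members had 1, and the 3 probe sets of Rpl41 had the same mean signal.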
